A study of Mus musculus with 81 samples.

Results

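The genes described here encode the replacement histones of the H2A family: H2afy (mH2A1), H2afy2 (mH2A2), H2afz (H2A.Z.1), H2afv (H2A.Z.2) and H2afx (H2A.X). They were chosen by name, as 5 of the 55536 genes counted in the largest of the deposited tables, and all 5 passed the filter on low counts in every comparison. In the training table they carry the newer symbols Macroh2a1, Macroh2a2, H2az1, H2az2 and H2ax. Their RNA was read in 26 libraries, 1 per mouse, and the mH2A domains over their own loci in 30 ChIP-seq libraries.

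Replacement histones enter nucleosomes outside of DNA replication, in place of the canonical H2A, whose genes are read mostly while DNA is copied. MacroH2A carries a large globular domain beyond the nucleosome and is known for condensed, silent chromatin, whereas H2A.Z is placed at gene starts by dedicated remodelling complexes and its loss or gain there accompanies memory formation. H2A.X is the form that kinases phosphorylate around DNA breaks.

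All mice were male C57BL/6J, about 9 to 12 weeks old, and the tissue was hippocampal area CA1. In the depletion experiment, 3 mice each received AAV-DJ with a scramble shRNA (shScr), an shRNA against H2afy (shH2afy) or one against H2afy2 (shH2afy2), and stayed in the home cage. In the training experiment, shScr mice and mice labelled as having received mH2A1 shRNA were left untrained or were collected 1 h after fear conditioning, 3 in each of the 4 groups. Intact mice, which received no virus, gave 3 untrained libraries and 2 from 1 h after training. ChIP-seq of mH2A1 and mH2A2 came from mice for which no virus is named, untrained or 30 min, 1 h or, for mH2A1, 6 h after training. Some mouse numbers of the labels stand on both 6 h ChIP samples and training RNA samples, and were not used to pair them. The U6 promoter that drove each shRNA is active in most cell types, the virus was given 2 weeks before collection, and the tissue around it that lit up with the GFP of the vector was dissected, uninfected cells included.

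Gene counts summed to between 9.95 and 18.8 M per library in the depletion experiment, 81.4 and 92.2 M in the training experiment and 48.8 and 58.7 M in intact mice. No pair of libraries was close enough in its counts to be 1 library deposited more than once. Levels are given in CPM, counts scaled to library size with TMM factors, and differences as log2 fold changes from the quasi-likelihood test of edgeR. The CPM was scaled over all libraries of an experiment and each fit over its own libraries, so a fold change can depart from the ratio of the CPM. For H2afx under shH2afy even the sign departs, with mean CPM of 33.99 in shScr and 33.55 in shH2afy. The training libraries were depleted of ribosomal RNA and counted over whole transcripts with their introns, so their CPM is not on the scale of the others. A gene was called changed at a Benjamini-Hochberg adjusted p under 0.01 in the depletion and intact comparisons and under 0.05 in the training comparisons. These are the adjusted p limits of the study without the fold change limits that it set beside them in mice that received virus. Small differences can therefore be called here. The study used 0.05 for trained against untrained mice of the same virus. Comparisons of virus labels within the training experiment are not reported in the study and take 0.05 here, unlike the depletion comparisons.

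Stretches upstream of 3 of the RefSeq starts are shown for the letters they hold, and are taken from the RefSeq promoter table on GRCm38.p6, which held 4 of the 5 genes. They are printed 5′ to 3′ on the strand of the gene, with bases in annotated exons left out. For H2afy this leaves out the 81 bases next to the RefSeq start, and the stretch lies inside the longer gene body used below for domains. Capitals mark CCAAT, the box read by the factor NF-Y, or its reverse ATTGG.
H2afy (Macroh2a1), minus strand of chr13:56135632-56135800: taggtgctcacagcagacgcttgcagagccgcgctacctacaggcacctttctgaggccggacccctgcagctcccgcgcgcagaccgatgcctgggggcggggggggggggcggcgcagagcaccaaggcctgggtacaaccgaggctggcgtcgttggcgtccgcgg
H2afz (H2az1), plus strand of chr3:137864375-137864486: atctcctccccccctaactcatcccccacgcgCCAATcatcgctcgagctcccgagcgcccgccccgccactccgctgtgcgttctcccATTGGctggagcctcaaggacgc
H2afv (H2az2), minus strand of chr11:6444444-6444693: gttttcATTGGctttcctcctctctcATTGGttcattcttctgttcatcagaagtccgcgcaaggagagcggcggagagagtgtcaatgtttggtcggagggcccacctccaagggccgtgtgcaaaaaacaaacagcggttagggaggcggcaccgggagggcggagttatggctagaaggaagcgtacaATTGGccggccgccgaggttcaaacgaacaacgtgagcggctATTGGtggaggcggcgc

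In the 250 bases before the start, searched on both strands, the pair of H2A.Z genes held 2 (H2afz) and 4 (H2afv) CCAAT boxes, and H2afy and H2afy2 held 0. CCAAT stood in 33.8% of 32851 promoters of that length. The GC box GGGCGG, in 32.7% of them, was found 2 times before H2afy, once each before H2afz and H2afv and 0 times before H2afy2. TATAAA, in 12.4% of all promoters, was in none of the 4. For H2afy2 all 250 bases lie in annotated exons and are not printed. H2ax is named only. These letters are descriptions of the windows.

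The targeted genes are given first. H2afy in the depletion experiment measured 60.8, 58.2 and 52.8 CPM in the shScr mice, 43.1, 45.0 and 39.2 in the shH2afy mice and 72.01, 65.00 and 66.04 in the shH2afy2 mice. The 3 groups did not overlap, with shH2afy lowest and shH2afy2 highest. Against shScr, the log2 fold change of H2afy under shH2afy was -0.37 ± 0.103 (SE), a level 77.6% of control, with an adjusted p of 0.031 from edgeR, above the limit of 0.01.

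H2afy2, the gene of mH2A2, measured 18.3, 18.7 and 19.0 CPM in shScr, 16.1, 15.2 and 13.6 in shH2afy and 13.2, 8.05 and 7.57 in shH2afy2. Every mouse of either knockdown lay under every shScr mouse, and replicate 1 of shH2afy2 stood well above the other two. Its log2 fold change under shH2afy2 was -0.95 ± 0.218, 51.6% of control, with an adjusted p of 0.0907 from edgeR. DESeq2 gave an adjusted p of 0.00449 for the same counts. Under shH2afy it was -0.25 ± 0.123 (adjusted p = 0.159 from edgeR).

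H2afv, which encodes the H2A.Z.2 protein, differed under the mH2A2 shRNA by about as much as the targeted gene did. It measured 32.1, 31.7 and 39.0 CPM in shScr, 27.3, 28.8 and 21.8 in shH2afy and 20.6, 17.8 and 16.8 in shH2afy2. No group overlapped another. The log2 fold change was -0.89 ± 0.134 under shH2afy2, 53.9% of control, with a p of 0.000216 before adjustment and an adjusted p of 0.0714 from edgeR. DESeq2 gave 1.9e-05. Under shH2afy the value was -0.33 ± 0.151 (adjusted p = 0.133 from edgeR).

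H2afz, the other H2A.Z gene and the highest of the 5 in mean CPM of the shScr mice, stayed within the spread of the controls. Its levels were 73.8, 98.7 and 92.5 CPM in shScr, 98.1, 95.5 and 85.1 in shH2afy and 92.0, 79.8 and 96.4 in shH2afy2. The log2 fold changes were 0.14 ± 0.137 under shH2afy and 0.02 ± 0.133 under shH2afy2. Their nominal 95% intervals, from a normal quantile, ran from -0.13 to 0.41 and from -0.24 to 0.28. H2afz and H2afv share much of their coding sequence and have processed copies in the genome. Whether reads were split between them was not tested.

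H2afx, the substrate of the DNA damage kinases, measured 29.5, 36.5 and 36.0 CPM in shScr, 35.8, 32.8 and 32.0 in shH2afy and 36.3, 41.4 and 40.7 in shH2afy2. Its groups overlapped with shScr in both knockdowns. The log2 fold changes were 0.05 ± 0.125 and 0.22 ± 0.118.

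By count, 0 of the 5 genes were called under shH2afy, where 17.1% of the 16179 genes tested were. Of the 5, 1, H2afy, had an unadjusted p under 0.05. In counts simulated for this comparison, the test recovered 2.0% of changes of 1.5 fold and 22.0% of changes of 2 fold. A gene not called here may therefore still have changed by that much. DESeq2 called 4382 genes in that comparison. The groups did not overlap for 3 of the 5, against 48.8% of all genes. Under shH2afy2, 0 of the 5 were called by edgeR, where 0% of 15609 genes were called and 3238 had an unadjusted p under 0.05. The 3 members under that value were H2afy (0.24 ± 0.0838, a level 118.5% of control), H2afy2 and H2afv. DESeq2 called 486 genes, H2afy2 and H2afv among them. For 3 of the 5 the groups did not overlap, against 26.2% of all genes. Both comparisons used the same 3 shScr mice.

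Set against each other, without the shScr mice, the knockdowns differed in H2afy. Its level under shH2afy was 62.7% of that under shH2afy2 (log2 fold change -0.67 ± 0.0988, adjusted p = 0.00346 from edgeR), the 1 member called, where 16.6% of 16294 genes were. Without shH2afy replicate 1, shH2afy2 replicate 1 or shH2afy2 replicate 3 the adjusted p was 0.0195, 0.0139 or 0.0174, each above the limit. H2afv was higher under shH2afy by 0.50 ± 0.146 (adjusted p = 0.0338) and H2afy2 by 0.64 ± 0.230 (adjusted p = 0.0646), neither of them called. The groups did not overlap for 4 of the 5, against 50.7% of all genes.

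**Figure D1:**
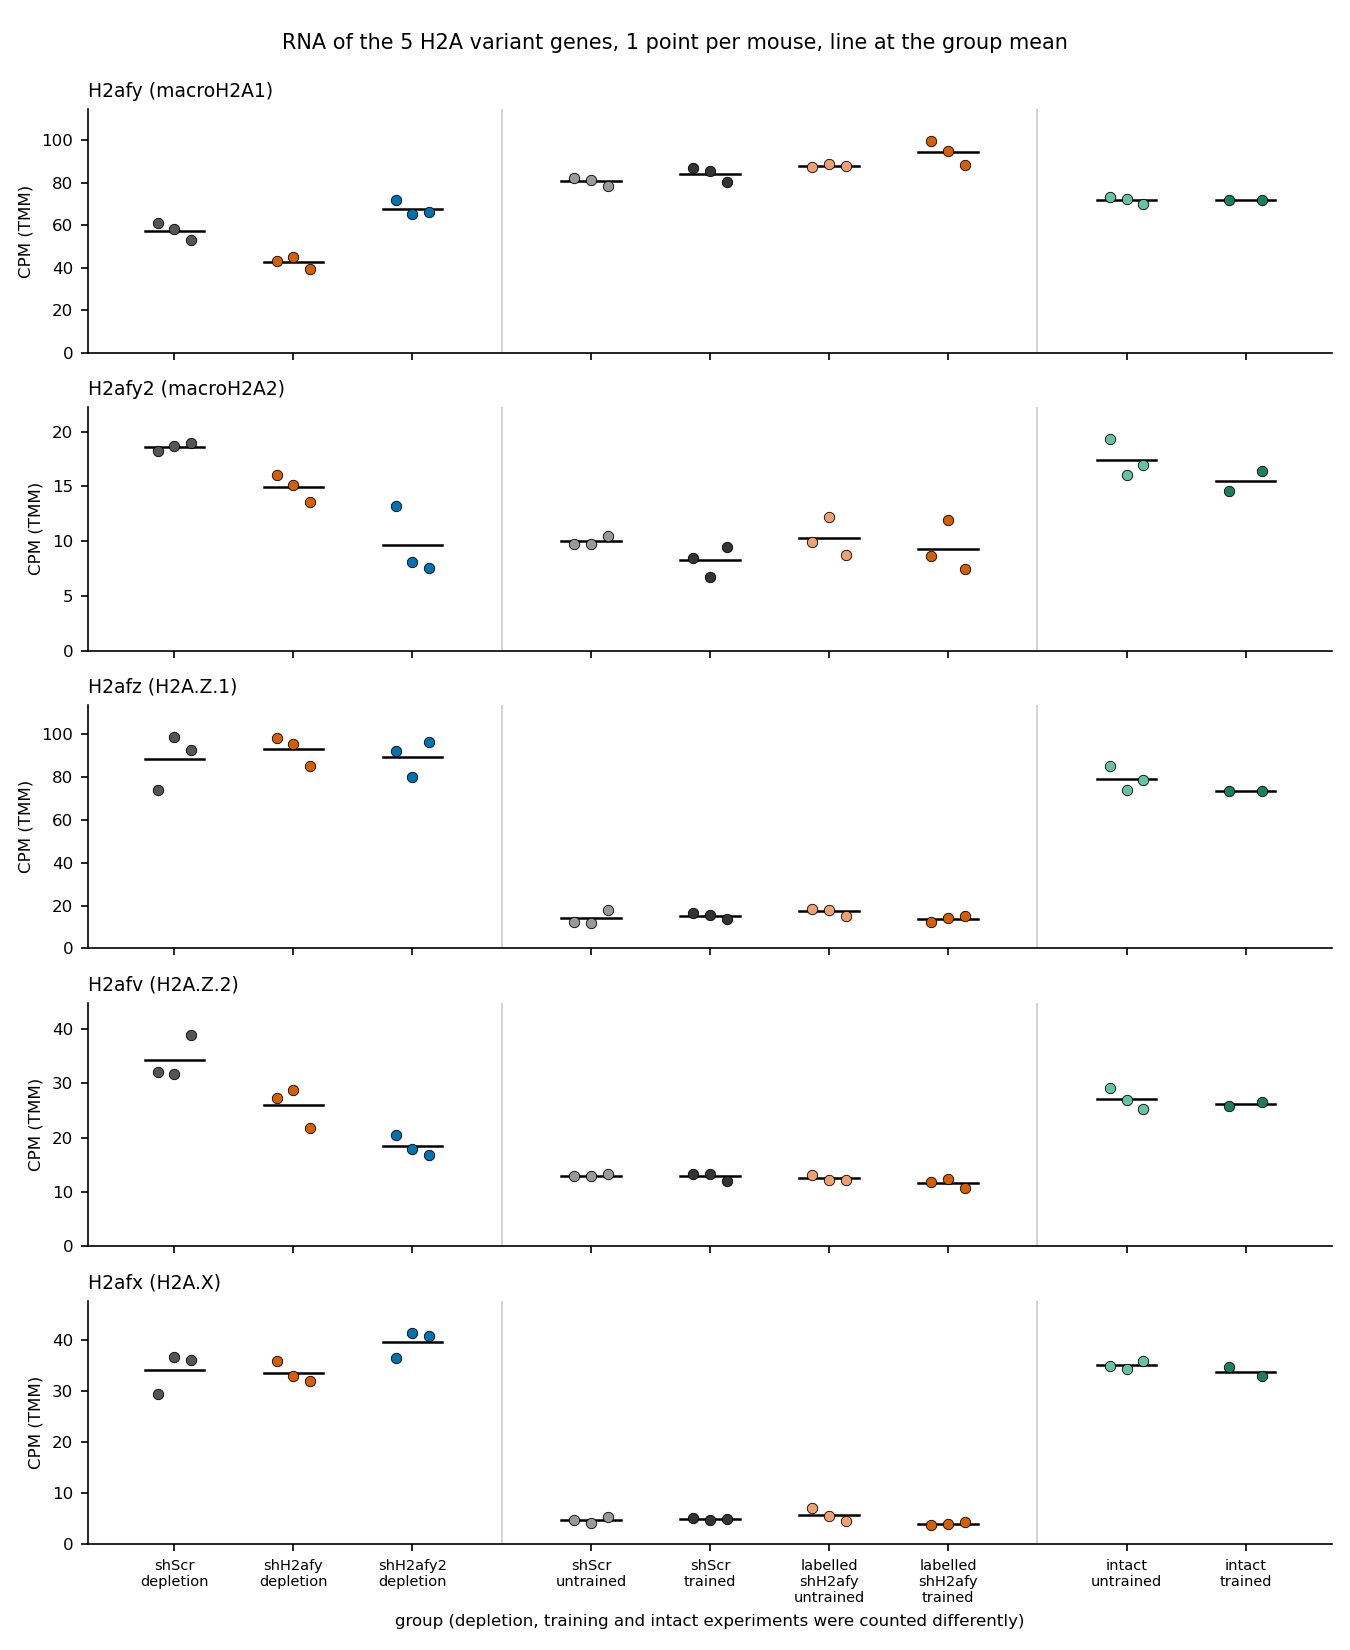
RNA of each H2A variant gene in CPM (vertical axes start at 0), 1 point per mouse with a line at the group mean, for the depletion, training and intact experiments from left to right. H2afy was lowest in the 3 shH2afy mice of the depletion experiment, at 39.2 to 45.0 CPM, and highest in the libraries labelled mH2A1 shRNA of the training experiment, at 87.1 to 99.5 CPM on another scale of counting.

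Cell type markers moved between these groups as well. Summed over 6 microglial markers, shScr mice measured 250.8 to 379 CPM, shH2afy mice 1183 to 1793 and shH2afy2 mice 347 to 596, and 6 of 6 markers rose under shH2afy. The 5 astrocyte markers summed to 1175 to 1638, 4745 to 5312 and 1320 to 1831 CPM, and 3 of 5 rose. The 6 markers of CA1 pyramidal neurons summed to 1060 to 2216, 442 to 671 and 1167 to 1614 CPM, and 2 of 6 fell. Of 6 inhibitory neuron markers 4 fell, and of 12 genes of dividing cells 10 rose. The 5 B and plasma cell genes summed to 568.4 and 838.3 CPM in shH2afy replicates 1 and 2 and 148 CPM in shH2afy2 replicate 2, and to at most 1.70 CPM in the other 6 libraries. The 4 T cell genes summed to 0.484 to 2.74 CPM in shScr, 4.70 to 39.0 in shH2afy and 0.339 to 8.32 in shH2afy2 mice. Under shH2afy 3 of them were tested and 0 called. Of the T cell genes, Cd3d was at 0 in all 3 shScr libraries. No microglial, astrocyte or neuronal marker was at 0 in any of the 9. In these bulk samples, fewer cells of a type and less RNA per cell cannot be told apart, and the part of these markers in the values of the H2A genes was not tested.

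In the training experiment the targeted gene went against the labels. H2afy measured 82.2, 81.3 and 78.3 CPM in untrained and 86.7, 85.3 and 80.4 in trained shScr mice. In the libraries labelled mH2A1 shRNA it measured 87.1, 88.8 and 88.0 CPM untrained and 99.5, 94.7 and 88.5 trained. Each of these 6 lay above all 6 shScr libraries, with raw counts of 7892 to 9001 against 6384 to 7240. In the fit over all 12 libraries with training as a covariate, the log2 fold change was 0.14 ± 0.0365, 110.5% of control, with an adjusted p of 0.00415 from edgeR. In that fit 64.5% of 15997 genes were called, and H2afy was the 1 member. Directions drawn from these 6 libraries below therefore rest on labels that the RNA of the targeted gene, counted with its introns, does not bear out. Their CA1 pyramidal, microglial and astrocyte marker sums, given below, lay on the same side of shScr as under shH2afy in the depletion experiment. Whether the labels or the way of counting account for the H2afy values was not tested. Splice forms of H2afy, intron reads and spliced RNA are not separated in these counts.

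The other members differed little by virus label over the 12 libraries. H2afy2 ranged from 6.74 to 10.4 CPM in shScr and from 7.43 to 12.2 in the libraries labelled mH2A1 shRNA, with a log2 fold change of 0.11 ± 0.126. H2afz ranged from 11.8 to 18.0 and from 12.2 to 18.6 CPM (0.08 ± 0.125), and H2afv from 12.1 to 13.4 and from 10.8 to 13.2 CPM (-0.10 ± 0.0498, adjusted p = 0.0899 from edgeR). H2afx had a log2 fold change of -0.02 ± 0.136 over the 12 libraries and is given next by training. In the same libraries, 6 CA1 pyramidal markers summed to 413 to 684 CPM in shScr and 146 to 334 in those labelled mH2A1 shRNA, and 6 microglial markers to 201 to 313 and 684 to 997. The 5 astrocyte markers summed to 809 to 1176 and 1838 to 2092 CPM, and the part of these markers in the result was not tested.

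H2afx measured 4.65, 4.14 and 5.39 CPM in untrained and 5.09, 4.74 and 5.03 in trained shScr mice. In the libraries labelled mH2A1 shRNA it measured 7.08, 5.45 and 4.47 untrained and 3.82, 3.88 and 4.29 trained. The 3 trained libraries with that label were among the 4 lowest of the 12. Among trained mice, H2afx fell by 0.31 ± 0.102 on the log2 scale in the libraries labelled mH2A1 shRNA (80.7% of control, adjusted p = 0.0471 from edgeR), the 1 member called, where 46% of 15703 genes were. The groups did not overlap for H2afy and H2afx, 2 of the 5, against 58.9% of all genes. The adjusted p lay above the limit of 0.05 with RLE size factors (0.0502), without the filter on low counts (0.0617) and without any 1 of 5 of the 6 libraries (0.0621 to 0.155). Among untrained mice the difference was 0.26 ± 0.189 (adjusted p = 0.29), with 0 members called against 47.9% of 15799 genes and 1 of 5, H2afy, without overlap against 59.8%. The test of the difference between these effects, the interaction over 12 libraries, gave -0.57 ± 0.224 with a p of 0.0277 and an adjusted p of 1.0 from edgeR, and called 0% of genes (333 at an unadjusted p under 0.05, 0 by DESeq2).

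Training itself changed none of the 5 genes by edgeR in the 3 comparisons that the design allows. In shScr mice 0 of 5 were called, where 0% of 15424 genes were, with 1382 at an unadjusted p under 0.05 and 263 called by DESeq2. In the libraries labelled mH2A1 shRNA 0 of 5 were called, where 0% of 15866 genes were, with 613 at an unadjusted p under 0.05 and 47 called by DESeq2. In intact mice 0 of 5 were called, where 0.0959% of 15638 genes were and DESeq2 called 472. DESeq2 called none of the 5 in any of them.

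H2afy2 had the lower mean after training in each of the 3 comparisons. In shScr mice it measured 9.74, 9.76 and 10.4 CPM untrained and 8.498, 6.742 and 9.479 trained, with no overlap (15.1% of all genes), a log2 fold change of -0.29 ± 0.125 and an adjusted p of 0.572. In the libraries labelled mH2A1 shRNA it measured 9.93, 12.2 and 8.74 and then 8.61, 11.9 and 7.43 CPM (-0.14 ± 0.201), which overlapped. In intact mice the values were 19.4, 16.0 and 17.0 untrained and 14.6 and 16.4 trained (-0.17 ± 0.100, adjusted p = 0.383). None of these 3 differences passed its test, and trained and untrained mice were separated in shScr mice only.

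In the libraries labelled mH2A1 shRNA, H2afx and H2afz had unadjusted p-values under 0.05 for training. H2afx had a log2 fold change of -0.50 ± 0.187 and H2afz one of -0.31 ± 0.127. Both had an adjusted p of 0.998 from edgeR. H2afy differed by 0.11 ± 0.0638 there and by 0.05 ± 0.0513 in shScr mice.

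The other values of intact mice follow. H2afy measured 73.2, 72.2 and 69.9 CPM untrained and 71.6 and 71.7 trained. Its log2 fold change of -0.0032 had a nominal 95% interval, from a normal quantile, of -0.094 to 0.088. H2afz measured 85.0, 74.1 and 78.7 untrained and 73.7 and 73.3 trained (-0.11 ± 0.0653), without overlap, as for 39.8% of all genes. H2afv (25.2 to 29.1 CPM over the 5 mice) and H2afx (32.9 to 35.9 CPM) differed by -0.05 ± 0.0722 and -0.05 ± 0.0541.

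**Figure D2:**
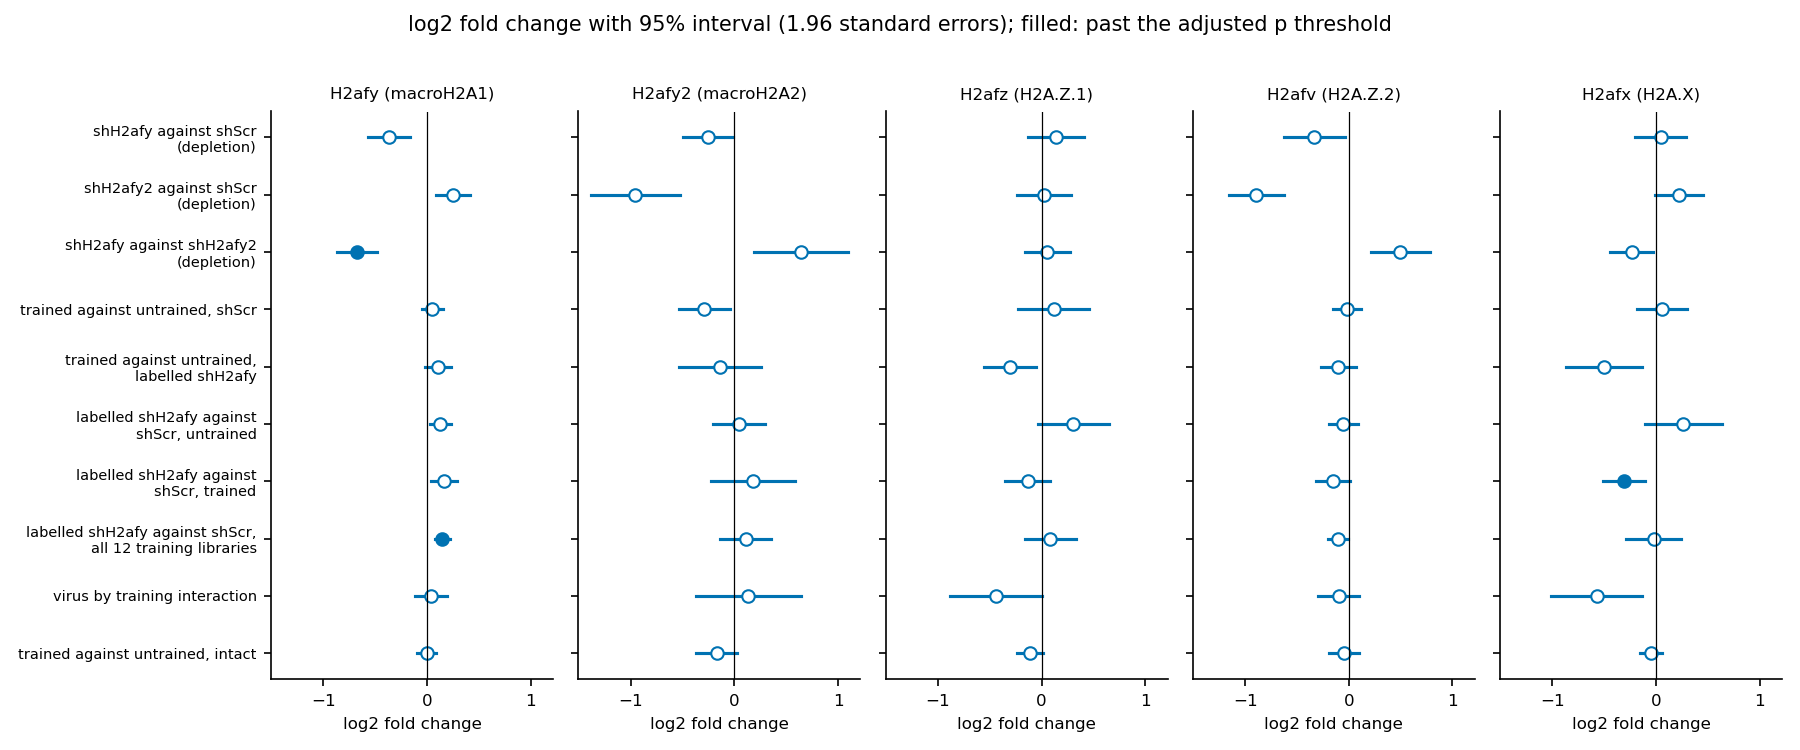
Log2 fold changes of the 5 genes in each RNA comparison (horizontal axis), with nominal 95% intervals from a normal quantile as bars. A bar clear of 0 does not mean that the test was passed. For H2afy2 under shH2afy the bar ran from -0.49 to -0.0094, with an unadjusted p of 0.0787 from edgeR. The values of H2afy2 and H2afv under shH2afy2, -0.95 and -0.89, lie farthest from 0, and those for training lie between -0.50 and 0.12.

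Per kb of exon, merged over all annotated forms of a gene, H2afz was the highest of the 5 in the depletion and intact experiments. The macroH2A genes were the lowest there. The merged exons of H2afy, at 6809 bases, were the longest, against 1384 to 2175 for the other genes. Before division by length H2afy stood second in shScr mice of the depletion experiment, with a mean of 57.25 CPM against 88.36 for H2afz. Its place per kb therefore rests on that length. In shScr mice of the depletion experiment, levels per kb of exon were 49.8 ± 7.30 CPM for H2afz (SD, n = 3), 24.6 ± 2.85 for H2afx, 21.0 ± 2.51 for H2afv, 8.56 ± 0.163 for H2afy2 and 8.41 ± 0.596 for H2afy. H2afx and H2afv, and H2afy2 and H2afy, did not differ beyond their spread. In untrained intact mice the order was H2afz at 44.6 ± 3.08, H2afx at 25.3 ± 0.602, H2afv at 16.6 ± 1.18, H2afy at 10.5 ± 0.247 and H2afy2 at 8.02 ± 0.790 CPM per kb, and no neighbours overlapped. In the training experiment, per kb of gene span with introns, untrained shScr mice measured 5.74 ± 1.42 for H2afz, 3.41 ± 0.454 for H2afx, 1.28 ± 0.0324 for H2afy, 0.756 ± 0.0123 for H2afv and 0.219 ± 0.00884 for H2afy2. This last scale favours genes without introns, such as H2afx.

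Across the 9 depletion libraries, the genes whose log2 levels ran closest to each member, after centring, are given by the root mean square difference. For H2afy these were Eid2 (0.065), Ubqln1 (0.073) and Pgrmc2 (0.075), for H2afy2 Stim1 (0.0855), Impact and Sgta, and for H2afv Ccdc85c (0.098), Ptprr and Ado, out of 13760 genes. For H2afz they were Dus1l (0.0784), Rbbp4 and Cnnm4, and for H2afx Rfc5 (0.0578), Ecd and Dhx40. Across the 12 training libraries and 13607 genes they were Sppl3 (0.0417) for H2afy, Trim62 (0.0804) for H2afy2, Adrm1 (0.0885) for H2afz, Ago4 (0.0408) for H2afv and Coa6 (0.0941) for H2afx. Depth and scaling are shared by all genes of a library, and each gene was picked as the closest of many.

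The genes that place, remove, read or modify these histones were counted in lists. Under shH2afy in the depletion experiment, 0 of 25 genes of H2A.Z deposition and removal changed (median log2 fold change -0.05, against 0.01 over all genes). Of 20 macroH2A partners and regulators 3 rose and 1 fell. Those that rose were Hells (1.42), a chromatin remodeller, Ezh2 (1.32), the methyltransferase of H3K27, and Hdac1 (0.89), a histone deacetylase, and Chd5 fell by 0.60 on the log2 scale. Of 21 genes of H2AX phosphorylation and the damage response 3 rose, Gadd45g (1.78), Gadd45a (1.68) and the phosphatase Eya4 (1.18). Of 12 other histone variants and their chaperones 4 rose and 1 fell, with Cenpa, the H3 of centromeres, at 2.41. Of 22 other H2A genes, 3 passed the filter and 0 changed. In this comparison 12.6% of all genes rose and 4.47% fell.

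Under shH2afy2, 0 genes of any of these 5 lists changed by edgeR, as 0 genes did overall. Between the knockdowns, shH2afy against shH2afy2, 5 of 21 genes of the H2AX list rose and 0 fell, 1 of 25 of the H2A.Z list fell, 1 rose and 1 fell of the 20 macroH2A partners, 3 rose and 1 fell of the 12 other variants, and 0 of 3 other H2A genes changed. Of all genes 9.83% rose and 6.74% fell in that comparison. Training changed 0 genes of the 5 lists by edgeR in shScr mice, in the libraries labelled mH2A1 shRNA and in intact mice.

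Over the 12 training libraries, 11 of 25 genes of H2A.Z deposition and removal fell and 2 rose with the mH2A1 shRNA label. Anp32e, the chaperone that takes H2A.Z out of nucleosomes, fell by 0.61 on the log2 scale, the neuronal remodeller subunit Actl6b by 0.56 and the helicase Ruvbl1 by 0.31. Of the 20 macroH2A partners 11 fell and 5 rose, with Rbfox1, a neuronal splicing factor, at -1.04 and the macrodomain gene Macrod2 at -0.68. Of the 21 genes of the H2AX list 10 rose and 4 fell, with Gadd45a at 1.57 and Brca1 at 1.30. Of 12 other variants 5 rose and 2 fell, and of 12 other H2A genes tested 4 rose and 1 fell. Since 64.5% of all genes were called in this comparison, 5239 higher and 5077 lower, these counts are a description.

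ChIP-seq gave the share of each gene body that lay in domains of mH2A1 or mH2A2, as called by the authors in each library against its input. Domains numbered 51899 to 95952 per library and covered 8.28 to 23.7% of the genome. The bodies are, on mm10, chr13:56073619-56136361 for H2afy, chr10:61738665-61784147 for H2afy2 and chr11:6427229-6444443 for H2afv, on the minus strand, and chr3:137864487-137866922 for H2afz and chr9:44334694-44336077 for H2afx, on the plus strand.

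The macroH2A genes themselves lay in mH2A2 domains. H2afy was covered in 11 of 11 mH2A2 libraries, by 14.3 to 65.4% of its body (median 44.9%), and above the genome-wide share of the same library in each. H2afy2 was covered in 11 of 11, by 5.58 to 61.7% (median 44.6%), and above the genome-wide share in 10. H2afx, a gene of 1.38 kb, was covered in 5 of 11, H2afz in 1 and H2afv in 0. A median coding gene had 0 to 13.1% of its body in domains, depending on the library. Of coding genes, 12.6 to 38.2% (median 29.5%) had more mH2A2 cover than H2afy in the same library, and a median of 31.1% had more than H2afy2. The macroH2A genes span 62.7 and 45.5 kb, H2afv 17215 bases, H2afz 2436 bases and H2afx 1.38 kb. The part of gene length in these counts was not tested.

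**Figure D3:**
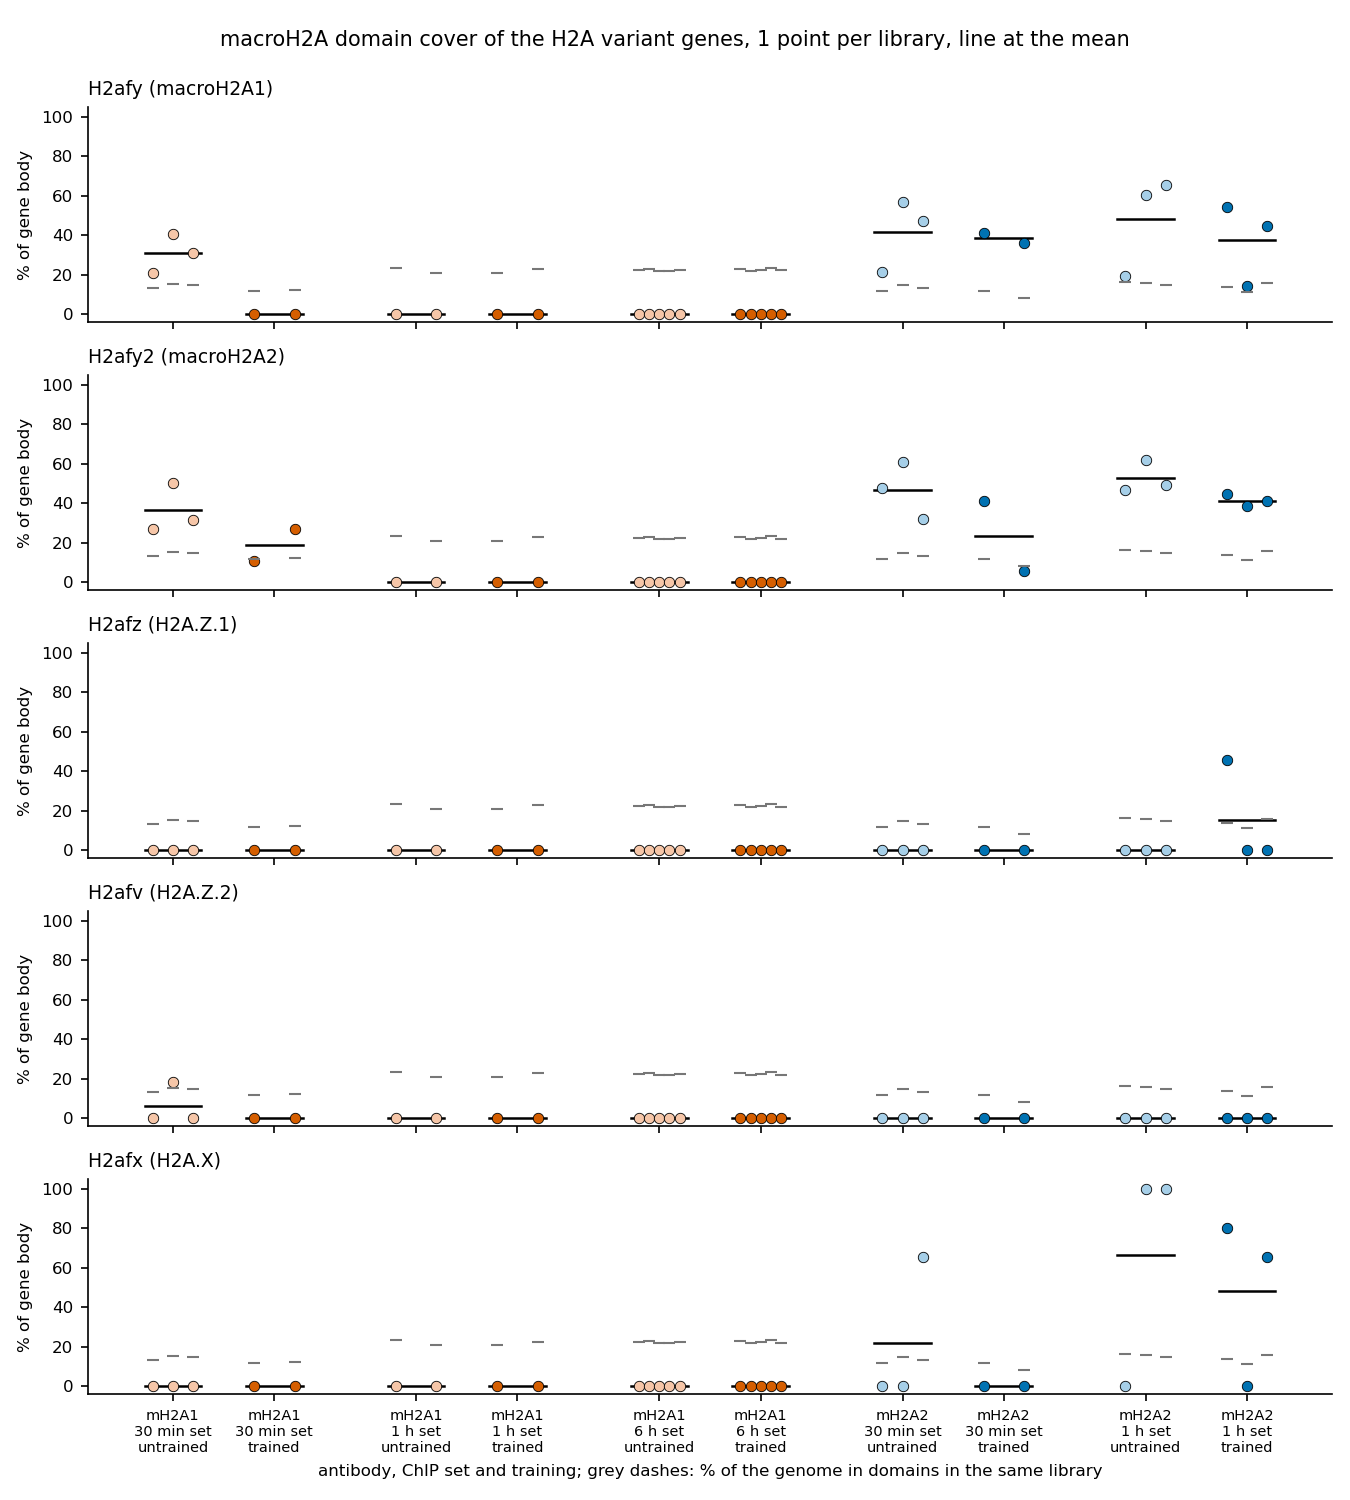
Share of each gene body in domains (vertical axis, percent), 1 point per ChIP library with a line at the group mean, and grey dashes at the share of the genome in domains in that library. H2afy and H2afy2 lie between 5.58 and 65.4% in all 11 mH2A2 libraries and at 0 in all 14 mH2A1 libraries of the 1 h and 6 h sets.

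For mH2A2, H2afy measured 21.6, 56.7 and 47.5% in untrained and 41.1 and 36.3% in trained mice of the 30 min set. In the 1 h set it measured 19.4, 60.2 and 65.4% untrained and 54.1, 14.3 and 44.9% trained. Trained and untrained mice overlapped in both sets (differences -3.20 and -10.5 percentage points, exact permutation p = 0.8 and 0.5).

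H2afy2 measured 47.9, 61.0 and 32.0% untrained and 41.3 and 5.58% trained for mH2A2 in the 30 min set, which overlapped. In the 1 h set it measured 46.6, 61.7 and 49.4% untrained and 44.6, 38.4 and 41.2% trained. There the groups did not overlap, as for 3.18% of 21911 coding genes, with a difference of -11.2 percentage points. The exact two-sided permutation p was 0.1, the smallest that 3 mice against 3 allow, and 1.0 after adjustment over the 25 tests. With domains under an FDR of 0.001 only, or after taking off the genome-wide share, the groups overlapped.

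H2afx was either largely within an mH2A2 domain or outside of any. It measured 0, 0 and 65.5% untrained and 0 and 0% trained in the 30 min set. In the 1 h set the values were 0, 100 and 100% untrained and 80.0, 0 and 65.5% trained. Its domains were 1.0 to 25.0 kb long. H2afz had 1 mH2A2 domain, over 45.7% of its body, in 1 h trained replicate 1.

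For mH2A1, H2afy was covered in untrained mice of the 30 min set and not 30 min after training. Its body cover was 20.7, 40.8 and 31.2% in the 3 untrained mice and 0 and 0% in the 2 trained mice. The groups did not overlap, as for 15% of 21911 coding genes, of which most (2805 of 3284) were also lower after training. The exact two-sided permutation p was 0.1, the smallest the design allows, and 1.0 after adjustment. With domains under an FDR of 0.001 only, the groups overlapped for all 5 members.

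H2afy2 measured 27.3, 50.5 and 31.5% untrained and 11.0 and 27.0% trained for mH2A1 in the same set, also without overlap (exact permutation p = 0.2). The gap between the groups was small, with the highest trained mouse at 27.0% and the lowest untrained mouse at 27.3%, and they overlapped once the genome-wide share was taken off (13.7, 35.2 and 16.6 against -0.938 and 14.8 percentage points). H2afv was covered in 1 untrained mouse, by 18.6%, and H2afz and H2afx in none. In the mH2A2 libraries of this set 13.1% of coding genes did not overlap, and none of the 5 did.

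In the 4 libraries of the 1 h set and the 10 of the 6 h set, mH2A1 domains covered 0% of the body of all 5 genes, trained or not. The exact tests of these sets can reach 0.333 and 0.00794 at the least where cover varies. With every value at 0 they could not show a difference, and they are among the 25 tests adjusted together. Of coding genes, 63.9 to 66.8% and 62.5 to 64.9% also had no domain there, and 11.6% and 0.26% did not overlap between trained and untrained mice. The mH2A1 antibody came from another maker in these sets than in the 30 min set, and domains covered 20.8 to 23.7% of the genome there against 11.9 to 15.3%, so set and antibody cannot be told apart. The 2 untrained mH2A1 libraries of the 1 h set were grouped by their titles, since their antibody label names mH2A2. In all, mH2A1 covered H2afy in 3 of 19 libraries, H2afy2 in 5, H2afv in 1 and H2afz and H2afx in 0, all of them in the 30 min set. Without those 2 libraries the counts were 3, 5, 1, 0 and 0 of 17. Outside its body, mH2A1 domains reached the window of 2 kb on each side of the H2afy start in 5 of 19 libraries, all of the 1 h and 6 h sets.

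In the 3 untrained mice of the 30 min set both marks were read in the same animals. The cover by mH2A1 was lower than that by mH2A2 in 3 of 3 mice for H2afy, by 0.923, 15.9 and 16.3 percentage points, and in 3 of 3 for H2afy2, by 20.7, 10.5 and 0.440. The smallest difference of each was under 1 percentage point, and 3 pairs cannot give an exact two-sided p under 0.25.

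Domains over the macroH2A genes lay more toward their 3′ ends. With each body cut in 3 equal parts in the direction of transcription, the median mH2A2 cover of H2afy in the 11 libraries was 17.2, 44.0 and 73.3% from the first part to the last, and that of H2afy2 23.8, 34.1 and 73.5%. The last part was covered more than the first in 10 of 11 libraries for each gene. For mH2A1 this held in 2 of the 3 libraries with a domain in H2afy and in 4 of 5 for H2afy2. The parts were chosen after the domains had been seen. Other long genes were not cut in this way, so the lean is not known to be particular to these genes.

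**Figure D4:**
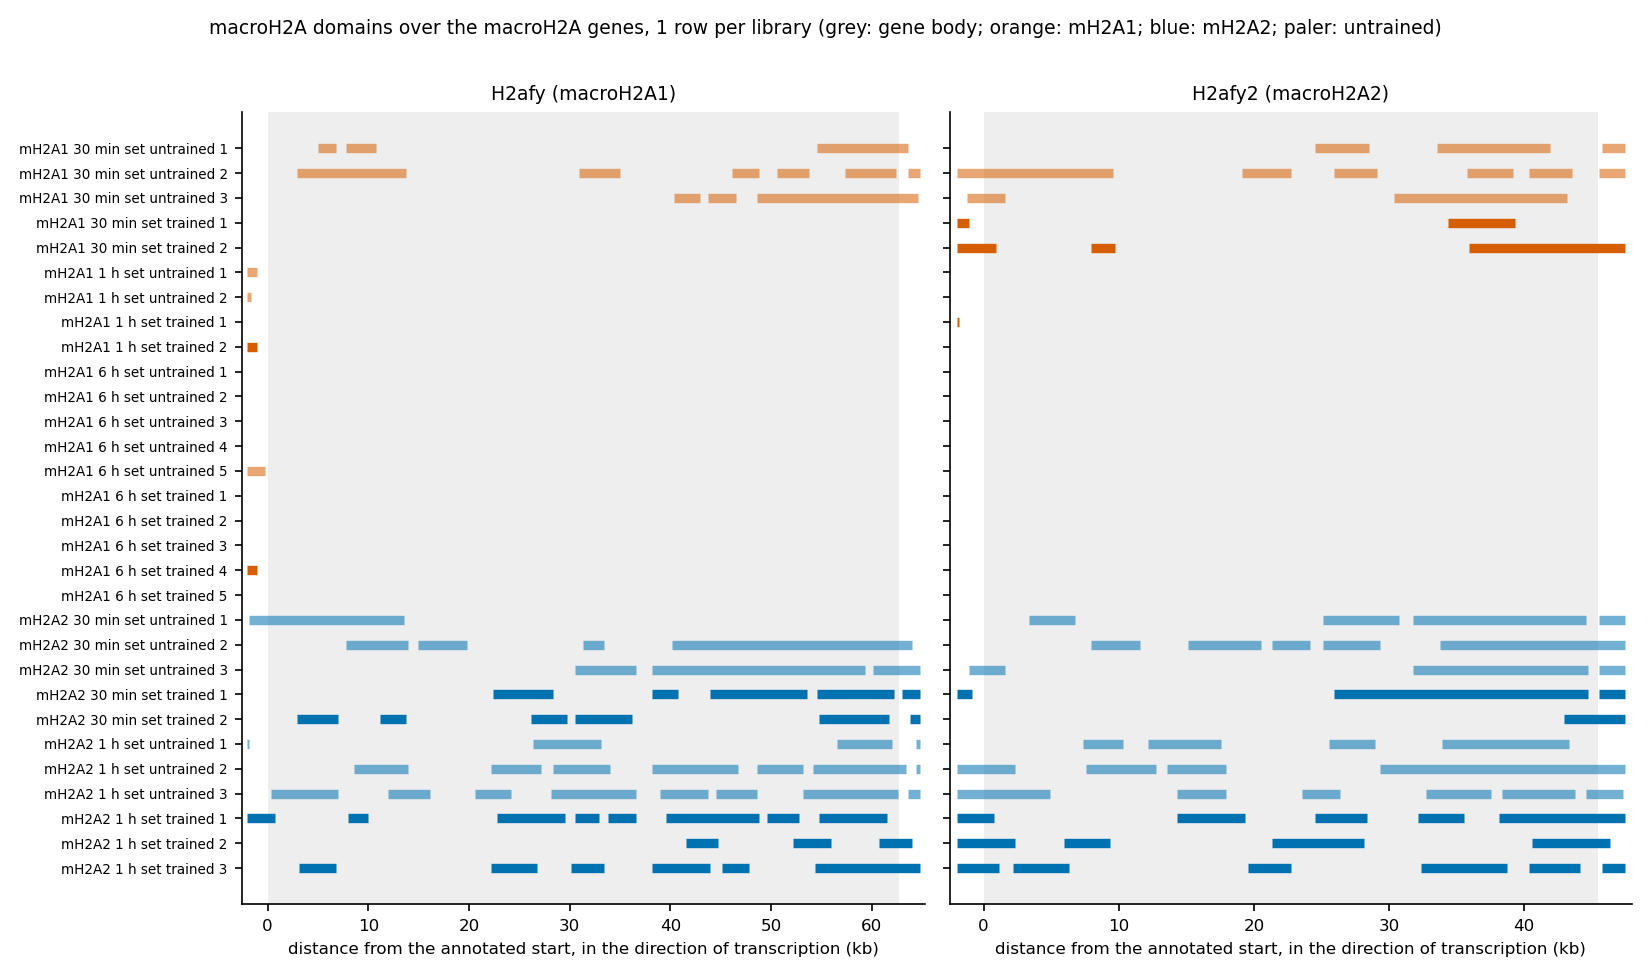
Domains along H2afy and H2afy2, as distance from the gene start in kb in the direction of transcription (horizontal axis), 1 row per ChIP library. The rows of mH2A2 carry blocks in all 11 libraries and cover the last part of each gene more than the first in 10 of 11, and the mH2A1 rows of the 1 h and 6 h sets are empty within the gene bodies.

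Enrichment over input is described here for the domains over these genes only, and domains elsewhere were not compared. Over the 49 mH2A2 domains that touched H2afy, the log2 of ChIP over input ranged from 0.10 to 0.86 (median 0.49) and the length from 2.0 to 31.2 kb, and over the 40 that touched H2afy2 from 0.11 to 0.93 (median 0.48). The highest value over a member was 2.81, in a domain of 1.0 kb at H2afx that held 87 ChIP and 11 input reads in 1 h trained replicate 3. The domain at H2afz reached 1.87 with 95 and 41 reads. These are calls of single libraries, and a weak domain can fall on either side of the limit of the caller.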

How the data were processed

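Gene counts were deposited as raw counts per gene, which the authors obtained with featureCounts from trimmed reads placed on mm10 by STAR. Ribosomal RNA was removed by the authors in the training experiment, where counting ran over whole transcripts. The authors aligned ChIP reads with Bowtie2 and called broad domains per library against its input. The caller was epic2 in the methods of the study and SICER in the labels. The deposited domain lists hold read counts of ChIP and input, a p-value, an FDR under 0.05 and a log2 of ChIP over input scaled by the caller. Replicates were not pooled.

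Counts were analysed with edgeR 4.0.16 and limma 3.58.1 in R 4.3.3 (filterByExpr with a least count of 10 and total of 15, TMM, quasi-likelihood test, Benjamini-Hochberg over all genes tested), with DESeq2 1.42.0 as an alternative. The authors used DESeq2 1.22.2. Only the groups compared entered a fit, except the fits over 12 training libraries. Intervals are 1.96 standard errors. CPM per kb used GENCODE exons merged per gene or, for training, the gene span. Of the intact table, 4 rows with a repeated name were left out. Gene bodies and starts came from the same annotation. Cover is the share of bases in domains, compared by exact two-sided permutation tests, adjusted over 25 tests. Sequences are those of RefSeq on GRCm38.p6.

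All 5 genes are named in every comparison, as are up to 4 genes of a list by smallest adjusted p, and the 3 genes closest to a member among those with a mean of at least 1 CPM. The members and lists were chosen with earlier results of these data known. The fits were tested on simulated counts. The labels do not say whether samples of one group differ in more than the mouse, and the p-values measure the spread between these mice. Same-numbered samples did not all deviate together (correlations from -0.312 to 0.540 in the depletion, -0.335 to 0.487 in the training and -0.240 to -0.126 in the intact experiment), so the numbers were not taken as pairs. Alternatives were RLE factors, DESeq2, no filter, all libraries of an experiment in one fit, a replicate block, leaving out each library, an FDR under 0.001, a window of 2 kb on each side of the start, and cover less the genome-wide share. Protein sequences were not used here.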

Additional observations from a re-analysis of the deposited data

Results flagged for a closer look

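H2afy RNA had log2 fold changes of opposite sign with the same shRNA label in the 2 experiments. The value against shScr was -0.37 in the depletion experiment, lower in 3 of 3 mice but not called (adjusted p = 0.031 from edgeR), and 0.14 in the training experiment, higher in 6 of 6 mice and called (adjusted p = 0.00415). The difference between the experiments was not tested, since they were counted in different ways.

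Between the knockdowns H2afy differed by -0.67 on the log2 scale (shH2afy against shH2afy2), a tested difference, with an adjusted p of 0.00346 from edgeR.

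In the window of 2 kb on each side of the start, 1 library of 5 stood apart from the others at 0 in each of 3 groups of the 6 h mH2A1 set. The cover of the H2afy start was 24.0% in trained replicate 4 and 44.0% in untrained replicate 5, and that of the H2afv start 26.1% in untrained replicate 5. The criterion, a gap that singles out about 1 group in 20 of evenly spread values, does not have that rate here. With the other 4 libraries at 0, any library above 0 meets it, and these 3 were all the groups of 5 with any spread. The smaller groups of the other sets were not examined. In the 1 h mH2A1 set the cover of the H2afy start was 24.0 and 9.02% in untrained mice and 0 and 24.0% in trained mice.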

How the results depend on the processing

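Of 815 values of single genes under an alternative, 767 kept their direction and their side of the limit and 27 turned direction. The cause of the changes that follow was not tested, apart from the fewer samples where a library was left out. Of the 5 genes, the number called by edgeR under shH2afy against shScr became 1 with all libraries of the depletion experiment in one fit (H2afy, adjusted p = 0.00596). Under shH2afy2 it became 2 with DESeq2 and 2 with no filter on low counts (H2afy2 0.00166 and H2afv 0.000184). For shH2afy against shH2afy2 it ranged from 0 to 1 without 1 library. For the mH2A1 shRNA label in untrained mice it ranged from 0 to 1, in trained mice from 0 to 2 and over 12 libraries from 1 to 2 without 1 library. In trained mice it was 0 with RLE factors, 0 with no filter and 0 with the replicate block (H2afx, adjusted p = 0.114). With all libraries in one fit H2afy was called there in place of H2afx (adjusted p = 0.0274 and 0.129). The replicate block changed no other call of the 5 genes.

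Over all genes, shH2afy changed 2759, against 4382 with DESeq2, 4339 with no filter, 1194 with the replicate block and 1012 to 3570 without 1 library. The share that rose was 73.8%, against 60.3, 65.3, 91.5 and, with all libraries in one fit, 58.7%. Under shH2afy2 the count was 0, against 486, 726 with no filter and 0 to 2 without 1 library. Between the knockdowns it was 2699, against 4661, 4859 and 2 to 3432 (3716 with the block). For training it was 0 in shScr, against 263 with DESeq2 and 6 with all libraries in one fit, 0 against 47 in the labelled mice, and 15 in intact mice, against 472, 51 with no filter, 0 with the block and 1 to 416 without 1 library. The trained comparison by label ranged from 4793 to 7202 genes without 1 library.

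Directions that turned were those of small values. With all libraries in one fit, H2afx under shH2afy was -0.018, and without 1 library -0.0995 to 0.0778, with H2afz from -0.0297 to 0.195. Under shH2afy2 H2afz ranged from -0.100 to 0.114. Between the knockdowns it was -0.018 with no filter and -0.0636 to 0.103 without 1 library. For training in shScr mice H2afv ranged from -0.0533 to 0.026 and H2afx from -0.0338 to 0.159, and in intact mice H2afy from -0.0222 to 0.010 and H2afv from -0.0936 to 0.0086. By label, H2afy2 ranged from -0.0945 to 0.149 in untrained and -0.0418 to 0.316 in trained mice, and H2afx from -0.140 to 0.0243 over 12 libraries. In the interaction H2afy ranged from -0.0033 to 0.0814 and H2afy2 from -0.0816 to 0.276.

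For domain cover, the number of the 5 genes without overlap was 2 for mH2A1 at 30 min, and 0 under an FDR of 0.001 and 0 in the start window. It was 3 after taking off the genome-wide share, when H2afy2 overlapped and H2afz and H2afx, at 0 cover in every library, were set apart by that share alone. For mH2A2 at 30 min it was 0, against 0 to 1 without 1 library and 2 after taking off the genome-wide share. Those 2, H2afz and H2afv, also had 0 cover in every library, so that count says nothing of them. For mH2A2 at 1 h it was 1, against 0 under the strict FDR, in the start window and after taking off the genome-wide share, and 1 to 3 without 1 library. In the same untrained mice, mH2A1 cover differed from mH2A2 cover in 1 direction in 3 of 3 mice for 2 genes, against 0 under the strict FDR, 0 in the start window and 4 after taking off the genome-wide share, of which H2afz had 0 cover in all of them. The mH2A2 difference of H2afy at 30 min became 0.162 after taking off that share, and ranged from -13.4 to 4.19 without 1 library. At 1 h it became 8.00 in the start window and ranged from -25.0 to 1.19 without 1 library, that of H2afy2 15.8 in the start window, and that of H2afx ranged from -51.5 to 6.09 without 1 library. Depth of the ChIP libraries is not known beyond the reads in domains, and groups of 2 or 3 mice cannot reach an exact p under 0.1.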
